A study of Mus musculus with 6 samples.

Results

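The genes described here are 43 components of Wnt signalling in the rib cage of mouse embryos lacking Foxc1 and Foxc2 in the developing skeleton. They comprised 19 Wnt ligands, 14 receptors of the Frizzled, Lrp and Ror families, 6 intracellular effectors and readouts (beta-catenin, the Tcf/Lef factors and Axin2) and 4 R-spondins. They were chosen by name, with earlier results of these data already known, and all 43 were found among the 55487 gene IDs of the count table. Of these, 41 had enough reads to be tested, and the other 2, Wnt8a and Wnt8b, had 5 and 6 counts in all libraries together.

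RNA-Seq had been performed on rib cage RNA of 6 embryos at 16.5 dpc (days post coitum). The 3 controls, embryos E420, E434 and E435, are labelled wild type, and the 3 mutants, embryos E423, E433 and E440, are labelled Col2-cre;Foxc1-/-;Foxc2-/-. According to the study's methods, the mutants came from males carrying Col2-cre and a deleted allele of each gene, mated to females homozygous for floxed Foxc1 and Foxc2, on a mixed C57B6 and Black Swiss background. Controls were littermates. Which floxed or deleted alleles the sequenced controls carried, and which embryos shared a litter, is not given. The Col2-cre driver acts in growth plate chondrocytes, perichondrium and the primary ossification centre, as the study saw in the hind limb, and its activity in other cells of the rib cage is not given. RNA of the whole tissue was sequenced, and fewer cells of a type cannot be told apart from less RNA per cell.

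Wnt ligands are secreted lipid-modified proteins that bind Frizzled receptors. Together with the co-receptors Lrp5 and Lrp6, Frizzled receptors stabilise beta-catenin, which enters the nucleus and acts with Tcf/Lef factors, whereas ligands such as Wnt5a and Wnt5b act largely through Ror receptors and planar polarity without beta-catenin. R-spondins are secreted proteins that keep Frizzled receptors at the cell surface. In the skeleton the pathway is known for guiding perichondrial cells towards the osteoblast fate and for pacing the maturation of growth plate chondrocytes, and in skin it starts hair follicles.

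Libraries held 37853988 to 47794799 counts, and levels are given as CPM (counts scaled to library size after TMM normalization), always in the order E420, E434, E435 for controls and E423, E433, E440 for mutants. The targeted genes were lower in the mutants. Foxc1 was at 23.1, 36.9 and 24.2 CPM in controls and at 3.56, 9.61 and 3.51 CPM in mutants, a log2 fold change of -2.34 ± 0.45 (SE; edgeR adjusted p = 0.235). Foxc2 was at 1.99, 4.83 and 3.22 CPM in controls and at 0.649, 1.14 and 0.737 CPM in mutants, a log2 fold change of -1.99 ± 0.39 (SE; edgeR adjusted p = 0.239). Neither group overlapped the other, and both genes passed the limit of 0.1 in DESeq2, at adjusted p = 9.6e-07 for Foxc1 and 0.00021 for Foxc2.

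The libraries did not divide by genotype alone. The log2 ratios of gene counts had an SD of 0.135 between mutants E423 and E440 and of 0.156 between controls E420 and E435, against 0.493 to 1.58 in the other 13 pairs. The close pairs still differed by more than counting noise, with a chi-square per degree of freedom of 2.52 and 6.72 on fragment counts, and each embryo was kept as a sample. The 13 early chondrocyte markers summed to 25730 CPM in control E434 and 9575 CPM in mutant E433 but to 498.4 to 1564 CPM in the other 4, and none of them was at 0 in any library. The 10 keratinocyte markers, which belong to epidermis, summed to 20.3 CPM in control E434, 3143 CPM in mutant E433, 5588 and 5992 CPM in the other controls and 25650 and 25980 CPM in the other mutants. The 5 hair follicle markers also were lowest in E434 and E433, from 0.971 CPM in E434 to 170.1 CPM in E440, and in E434 1 gene of each of these 2 lists was at 0. The 8 osteoblast markers summed to 11040 to 16130 CPM in controls and 7863 to 8259 CPM in mutants, and all 8 were lower without overlap. Tendon (267.1 to 390.5 against 184.4 to 243.6 CPM), macrophage (121.3 to 134.2 against 99.5 to 102.4 CPM) and erythroid markers (13270 to 16120 against 5544 to 10510 CPM) also summed to lower values in mutants, and adipocyte markers to higher ones (248.1 to 313.0 against 364.5 to 844.5 CPM). The part of these differences in the results below was not tested. Some fits below left out libraries or used the early chondrocyte marker level as a covariate. Averaged as log2 CPM, these markers were at 5.79, 9.22 and 5.75 in controls and at 4.42, 8.05 and 4.35 in mutants. They were lower in E423 and E440 than in E420 and E435, and lower in E433 than in E434. The covariate fit therefore cannot separate these markers from genotype, and its covariate holds no osteoblast, hypertrophic or epidermal markers.

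None of the 41 members tested passed an adjusted p of 0.1 in edgeR's quasi-likelihood test, in which 0.0902% of all 26596 genes tested passed. In the DESeq2 Wald test 3 members passed, where 3.57% of all genes did: the receptor Fzd5, the agonist Rspo2 and the ligand Wnt5b, all lower in mutants. A robust edgeR fit passed Fzd5 alone, with 0.203% of all genes. An unadjusted edgeR p under 0.05 was found for 8 members, against 10.6% of all genes (5.9% higher and 4.7% lower). Of these 8, Wnt2 and Wnt11 were higher in mutants and Wnt5b, Fzd2, Fzd5, Fzd8, Tcf7 and Rspo2 were lower. The 3 mutants lay wholly above the 3 controls for Wnt2 and Wnt11 and wholly below them for Wnt5b, Fzd5, Fzd8, Tcf7, Ctnnb1 and Rspo2, so that 8 of 41 members did not overlap, against 15% of all genes (6.81% higher and 8.21% lower).

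The log2 fold change was below 0 for 26 of the 41 members, against 48.8% of all genes, and its median was -0.12 against 0.01 over all genes. By role, it was above 0 for 12 of 17 ligands tested (median 0.42) and below 0 for 13 of 14 receptors (median -0.33) and for 4 of 4 R-spondins (median -0.38). Of the 12 ligands above 0, 7 were among the 8 that were more than 4 times lower in control E434 than in each other control. The difference between roles was not tested.

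**Figure D1:**
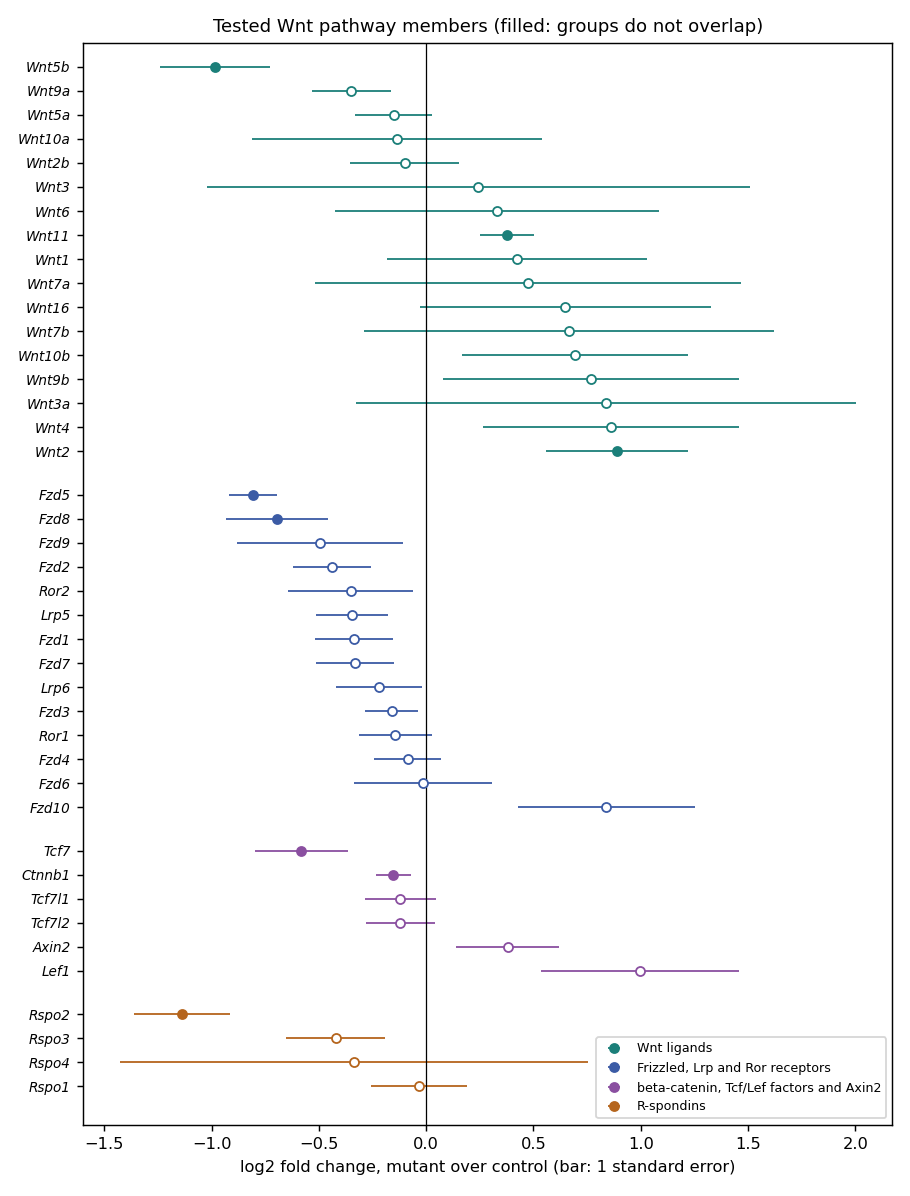
Log2 fold change of mutants over controls (x axis) with 1 standard error for the 41 members tested, grouped by role; filled points mark members whose 3 mutants lie wholly above or below the 3 controls. Receptors lie left of 0 except Fzd10, and the longest ligand bars belong to Wnt3, Wnt3a, Wnt7a and Wnt7b, which were low in control E434.

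Rspo2, a secreted amplifier of Wnt signalling, had the lowest log2 fold change among the members. Its level was 9.31, 11.4 and 8.16 CPM in controls and 4.11, 5.57 and 3.45 CPM in mutants. Every mutant was below every control. The means were 9.64 ± 1.66 CPM in controls and 4.38 ± 1.08 CPM in mutants (SD, n = 3 each), a log2 fold change of -1.14 ± 0.22 (SE; edgeR adjusted p = 0.244, DESeq2 adjusted p = 0.00036). The gene lies at chr15:43020794-43170826 on the minus strand of GRCm38, and none of its 5112 exon bases is shared with another gene.

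The other R-spondins showed smaller differences. Rspo3, the R-spondin with the highest level per kilobase of exon in controls (6.85 ± 1.62 CPM per kilobase, SD, n = 3), was at 17.8, 26.9 and 18.8 CPM in controls and 13.7, 20.3 and 13.3 CPM in mutants. The groups overlapped through mutant E433, and the log2 fold change was -0.42 ± 0.23 (SE; edgeR adjusted p = 0.556). Of the exon bases of Rspo3, 13.1% overlap a gene on the other strand. Rspo1 ranged from 4.39 to 7.56 CPM in controls and from 5.52 to 6.54 CPM in mutants. Rspo4 was near the limit of detection, at 0.0882 to 0.204 CPM in controls and 0 to 0.278 CPM in mutants.

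Fzd5, a Frizzled receptor best known for its roles in the gut, eye and yolk sac, had the smallest p among the members. Its level was 19.4, 19.9 and 19.5 CPM in controls and 12.4, 11.1 and 10.1 CPM in mutants. The controls lay within 1 CPM of each other and the mutants were all lower, as were the mutants for all 8 osteoblast markers, whose part in this result was not tested. The log2 fold change was -0.81 ± 0.11 (SE; edgeR adjusted p = 0.145, DESeq2 adjusted p = 3.8e-07), and it was -0.80 ± 0.11 with the early chondrocyte marker level as a covariate (edgeR adjusted p = 0.0355). The gene occupies chr1:64730558-64737751 on the minus strand of GRCm38, and 17.8% of its exon bases overlap Gm38058 on the other strand. Strand was not used in the counting. In the STAR and RSEM table the log2 fold change of Fzd5 was -0.79 ± 0.11 (edgeR adjusted p = 0.154).

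Fzd8, a Frizzled receptor, was at 44.0, 54.6 and 43.4 CPM in controls and 24.2, 40.6 and 22.8 CPM in mutants. Mutant E433 was close to the controls, and the others lay far below, with a log2 fold change of -0.70 ± 0.24 (SE; edgeR adjusted p = 0.421). Fzd2 had the highest level per kilobase of exon among the receptors in all 3 controls (26.3 ± 2.84 CPM per kilobase, SD, n = 3) and in mutant E433, and was below Fzd10 in mutants E423 and E440. Fzd2 was at 88.9, 108.2 and 91.9 CPM in controls and 60.9, 91.6 and 60.9 CPM in mutants. Mutant E433 reached into the controls' range, and the log2 fold change of Fzd2 was -0.44 ± 0.18 (SE; edgeR adjusted p = 0.471).

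Next to Fzd2, the highest receptors of controls per kilobase of exon were Fzd9, Fzd4, Lrp5 and Fzd7, at 16.4 ± 7.64, 15.2 ± 1.37, 13.9 ± 2.85 and 13.5 ± 2.06 CPM per kilobase (SD, n = 3). Their order was not resolved, since neighbours differed by less than their SD. Fzd9 was at 57.9 CPM in control E434 and 38.9 CPM in mutant E433 but at 20.1 to 28.3 CPM in the other 4 libraries, and the early chondrocyte markers were highest in the same 2. Other receptors, Lrp6 and Ror2 among them, were also highest in E434 and E433. Whether chondrocyte content had a part was not tested. Fzd4, which also serves as the receptor for norrin in blood vessels, ranged from 93.2 to 111.5 CPM in controls and from 82.8 to 119.3 CPM in mutants.

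The co-receptor Lrp5, whose loss in people lowers bone mass, was at 123.0, 166.8 and 115.6 CPM in controls and 104.4, 120.9 and 93.4 CPM in mutants. The overlap came from mutant E433, and the log2 fold change was -0.35 ± 0.17 (SE; edgeR adjusted p = 0.518). Lrp6, its close relative, spanned 124.8 to 185.5 CPM in controls and 108.5 to 158.1 CPM in mutants. Ror1 and Ror2, receptor tyrosine kinases that bind Wnt5a, had log2 fold changes of -0.14 ± 0.17 and -0.35 ± 0.29 (SE), neither past the limit (edgeR adjusted p = 0.791 and 0.700). The remaining Frizzled genes Fzd1, Fzd3, Fzd6 and Fzd7 had log2 fold changes between -0.34 and -0.01, with overlapping groups.

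Fzd10 stood against the other receptors. It was at 37.5, 19.2 and 38.7 CPM in controls and 74.4, 28.7 and 67.6 CPM in mutants, with E434 and E433 lowest in their groups. Its log2 fold change was 0.84 ± 0.41 (SE; edgeR adjusted p = 0.524), and by level per kilobase it was the highest receptor in mutants E423 and E440, at 22.9 and 20.8 CPM per kilobase, but not in mutant E433, at 8.82.

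Wnt5b, a ligand that growth plate chondrocytes make as they leave proliferation, was the ligand with the lowest log2 fold change. It was at 9.39, 13.9 and 10.7 CPM in controls and 4.26, 7.66 and 5.29 CPM in mutants. The groups did not overlap, although mutant E433 came within 2 CPM of control E420. The log2 fold change was -0.98 ± 0.26 (SE; edgeR adjusted p = 0.365, DESeq2 adjusted p = 0.0140). With the early chondrocyte marker level as a covariate it was -0.79 ± 0.14 (edgeR adjusted p = 0.0737). The 5 hypertrophic chondrocyte markers also summed to lower values in mutants, at 854.6 to 1430 CPM in controls and 251.3 to 318.3 CPM in mutants. Of these genes 3 (Mmp13, Spp1 and Pth1r) were lower without overlap, and Col10a1 and Ihh overlapped through mutant E433. E433 had the lowest sum of the mutants but the highest Wnt5b. Whether these cells had a part in the Wnt5b values was not tested.

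Wnt11, a ligand of the planar polarity branch, differed the other way. It was at 11.1, 14.5 and 12.9 CPM in controls and 17.5, 16.4 and 16.2 CPM in mutants. All mutants were above all controls, by a small margin between control E434 and mutant E440, and the log2 fold change was 0.38 ± 0.13 (SE; edgeR adjusted p = 0.415). Of its exon bases, 8.8% overlap a gene on the other strand. Wnt2, known for its role in lung specification, was at 5.90, 2.76 and 5.15 CPM in controls and 7.53, 11.3 and 6.76 CPM in mutants. E434 was the lowest control and E433 the highest mutant, so the log2 fold change of 0.89 ± 0.33 (SE; edgeR adjusted p = 0.437) fell to 0.38 ± 0.13 without these 2 libraries. The 3 lung epithelium markers together stayed at 1.10 CPM or less in every library, and 2 of them, Nkx2-1 and Sftpb, had too few counts to be tested. Mutant E433 was also the library with high hepatocyte markers (594.6 CPM against 29.7 to 46.3 CPM). Whether other tissue had a part in the Wnt2 values was not tested.

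Beside these results the promoters of the members were searched for CTTTGAT, letters bound by Tcf/Lef factors, on both strands. Promoters (250 bases before to 50 bases after a start, RefSeq on GRCm38.p6) were given for 31 of the 43 members, 40 promoters in all. The letters were found in 2 of the 40 (5%) and in 3.73% of all 32851 promoters. Both belong to ligands that had an unadjusted p under 0.05, Wnt5b, which was lower, and Wnt11, which was higher in the mutants, and they are shown for that reason. The windows are chr6:119449411-119449517 on the minus strand for Wnt5b, before a start inside the gene's longest span, and chr7:98835001-98835107 on the plus strand for Wnt11. Capitals mark the match, which begins 71 bases before the start in Wnt5b and, as the reverse complement ATCAAAG, 51 bases before it in Wnt11.
Wnt5b: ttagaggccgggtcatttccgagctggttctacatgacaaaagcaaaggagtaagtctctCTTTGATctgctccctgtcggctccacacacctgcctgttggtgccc
Wnt11: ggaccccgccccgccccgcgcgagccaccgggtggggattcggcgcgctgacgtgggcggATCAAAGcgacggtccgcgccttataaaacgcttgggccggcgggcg
A match of these letters is a description of the window only. The letters GTAAACA, bound by forkhead factors such as Foxc1, were found in 1 of the 40 promoters (2.5%), that of Tcf7, and in 3.65% of all promoters; this motif was chosen after the members' values had been seen.

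**Figure D2:**
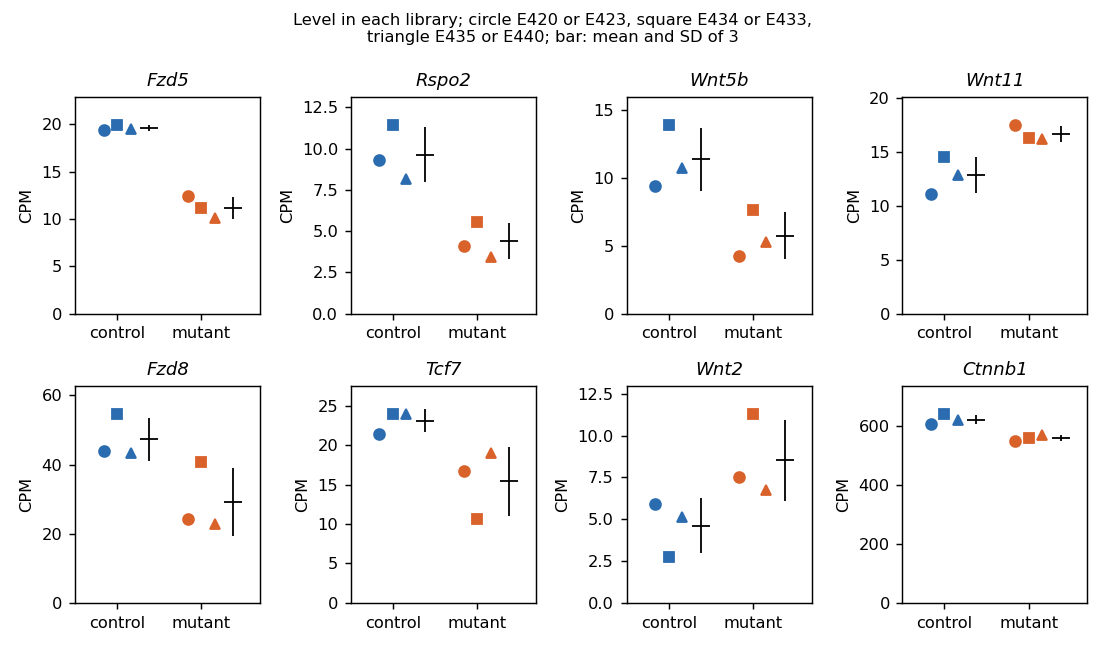
CPM (y axis) in each library of the 8 members whose groups do not overlap, with controls in blue and mutants in orange, circles for E420 or E423, squares for E434 or E433 and triangles for E435 or E440, and the mean and SD of 3 in black. Fzd5 shows a wide gap against little spread, whereas Wnt2 and Fzd8 are spread by E434 or E433.

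A group of ligands was low in control E434, the library with the lowest epidermal markers. The 4 mesothelium markers also had their lowest sums in E434 and E433, at 34.3 and 38.8 CPM against 81.6 to 88.3 CPM in the other libraries. Which cell types the ligands came from was not tested. In control E434 the level was more than 4 times below that in each other control for 8 of the 17 ligands tested and for none of the 24 other members tested, against 5.29% of all genes. These were Wnt3, Wnt3a, Wnt6, Wnt7a, Wnt7b, Wnt9b, Wnt10a and Wnt16. All 10 keratinocyte and all 5 hair follicle markers did the same. For some genes this rests on few counts in E420, E434 and E435: Flg at 4, 0 and 1, Hoxc13 at 4, 0 and 19 and Wnt9b at 12, 2 and 18.

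Wnt7b was at 42.6, 2.32 and 41.0 CPM in controls and at 62.7, 17.9 and 55.6 CPM in mutants. Controls E420 and E435 were together 18.1-fold above E434, a wider gap than that between the genotypes, and the log2 fold change was 0.66 ± 0.96 (SE; edgeR adjusted p = 0.832). Wnt6 was at 15.4, 1.85 and 16.2 CPM in controls and at 16.2, 7.10 and 18.8 CPM in mutants. Wnt3 was at 8.37, 0.0441 and 8.86 CPM in controls and at 8.44, 1.995 and 10.01 CPM in mutants. For both, mutants E423 and E440 held about the level of controls E420 and E435.

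Wnt3a, used by embryos for axis elongation and by skin for hair follicle growth, was at 2.09, 0 and 2.23 CPM in controls and at 3.51, 0.812 and 3.38 CPM in mutants. The count of 0 in E434 allows a level of up to 0.0662 CPM (3 counts, counting error only). Wnt10a was at 6.90, 1.68 and 7.09 CPM in controls and at 6.18, 1.62 and 6.44 CPM in mutants, so that E434 and E433 nearly coincided. Wnt16, Wnt7a and Wnt9b were also low in E434, at 1.48, 0.0441 and 0.0441 CPM.

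Wnt4 had the highest mean level per kilobase of exon among the ligands in both groups (9.63 ± 5.02 CPM per kilobase in controls and 17.5 ± 9.37 in mutants, SD, n = 3), but not in E434 and E433, where it was at 3.86 and 6.67 CPM per kilobase and Wnt5a at 6.73 and 7.57. Wnt4 was at 54.5, 16.2 and 50.5 CPM in controls and at 95.3, 28.0 and 96.7 CPM in mutants. It was low in E434 and E433 and high in mutants E423 and E440, and its log2 fold change was 0.86 ± 0.60 (SE; edgeR adjusted p = 0.643). Wnt10b, a ligand that promotes bone formation and holds back fat cell formation, had the same pattern, at 20.0, 6.88 and 20.0 CPM in controls and 32.9, 11.3 and 31.5 CPM in mutants. Its log2 fold change was 0.69 ± 0.53 (SE; edgeR adjusted p = 0.675). The sum of the keratinocyte markers was higher in mutants E423 and E440 than in controls E420 and E435 as well.

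The other ligands were more even across libraries. Wnt5a was the highest ligand per kilobase of exon in E434 and E433, at 6.73 and 7.57 CPM per kilobase, and was below Wnt4, Wnt7b and Wnt6 in the other 4 libraries. It was at 51.7, 52.6 and 47.1 CPM in controls and 39.6, 59.2 and 37.5 CPM in mutants. Its overlap came from mutant E433 alone, and the log2 fold change was -0.15 ± 0.18 (SE; edgeR adjusted p = 0.794). Without E433, left out after the values had been seen, it was -0.38 (edgeR adjusted p = 0.0495), where 13.4% of all genes passed the limit. That fit kept control E434, so it cannot separate genotype from tissue content. Wnt9a, which takes part in joint formation, was at 18.8, 16.3 and 19.8 CPM in controls and at 12.7, 18.3 and 12.1 CPM in mutants. Without E433 its log2 fold change moved from -0.35 to -0.56. Wnt2b ranged from 4.70 to 7.74 CPM in controls and 4.57 to 7.47 CPM in mutants. Wnt1 stayed at or below 0.227 CPM in every library. Summed over the 19 ligands, levels were 264.6, 135.5 and 257.2 CPM in controls and 326.1, 193.4 and 319.0 CPM in mutants.

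**Figure D3:**
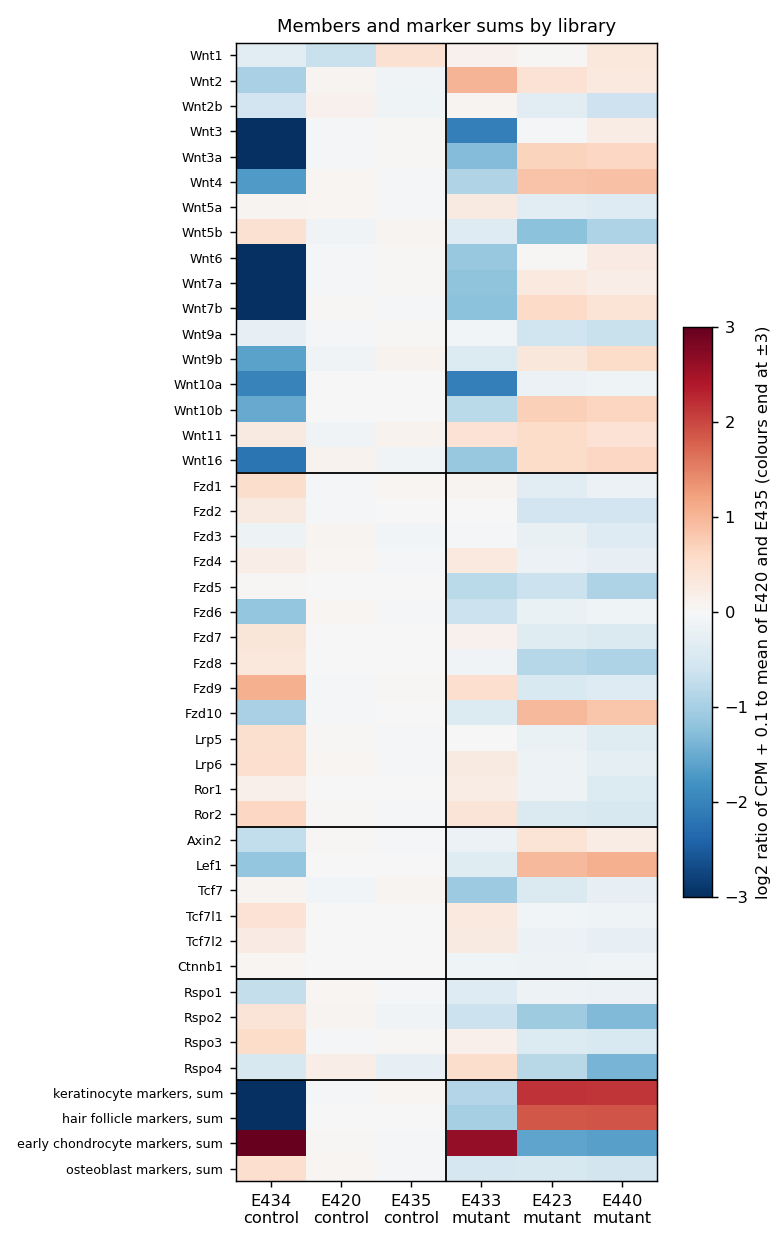
Log2 ratio of each library's CPM to the mean of controls E420 and E435 (0.1 added to each CPM, colours ending at ±3) for the 41 members tested and, at the bottom, for the summed markers of 4 cell types. The ligands that are dark blue in E434 share that low value with the keratinocyte and hair follicle sums, which lie further above the reference in E423 and E440 than any of these ligands, and Fzd5, Rspo2 and Wnt5b are below the 2 reference controls in all 3 mutants.

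Inside the cell, beta-catenin (Ctnnb1) had by far the highest level of the members, at 119.6 ± 3.24 CPM per kilobase in controls (SD, n = 3). It was at 606.0, 639.2 and 618.3 CPM in controls and at 547.8, 558.8 and 569.2 CPM in mutants. The mutants were all lower but the difference was small, with a log2 fold change of -0.15 ± 0.08 (SE; edgeR unadjusted p = 0.108, adjusted p = 0.552). Of the exon bases of Ctnnb1, 15.1% overlap Ulk4 on the other strand or Mir7090 on its own.

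Among the Tcf/Lef factors, through which beta-catenin acts on its targets, Tcf7 and Lef1 went opposite ways. Tcf7 was at 21.4, 23.9 and 23.9 CPM in controls and at 16.7, 10.6 and 19.0 CPM in mutants. The groups did not overlap, mutant E433 being the lowest, and the log2 fold change was -0.58 ± 0.22 (SE; edgeR adjusted p = 0.437). Lef1 was at 9.77, 4.35 and 9.98 CPM in controls and at 19.6, 7.70 and 20.8 CPM in mutants, the order of the hair follicle markers in its extremes. Its log2 fold change was 0.996 ± 0.461 (SE; edgeR adjusted p = 0.508), with 13.7% of its exon bases overlapping a gene on the other strand. Tcf7l1 and Tcf7l2 had log2 fold changes of -0.12 ± 0.17 and -0.12 ± 0.16 (SE), with overlapping groups. Axin2, a feedback inhibitor widely used as a readout of beta-catenin activity, was at 34.0, 19.5 and 31.8 CPM in controls and at 43.5, 29.2 and 38.3 CPM in mutants. Mutant E433 was below controls E420 and E435, and the log2 fold change was 0.38 ± 0.24 (SE; edgeR adjusted p = 0.610).

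Since controls E420 and E435 resembled each other, as did mutants E423 and E440, the members were also read in 2 sets of libraries, these 4 embryos and the pair of E434 and E433. Both ratios were formed for the 37 members with more than 3 counts in each of E433 and E434, which leaves out Wnt3, Wnt3a, Wnt7a and Wnt9b. Of these 37, 27 had the same sign in both sets, 16 below 0 and 11 above 0. The share over all genes was not computed, so this count is a description and not a result about the members. Rspo2 had log2 ratios of -1.21 in the set of 4 and -1.04 in the pair, Fzd5 of -0.79 and -0.84, Wnt5b of -1.08 and -0.86, and Tcf7 of -0.34 and -1.18. The groups of these members do not overlap, so their sign in both sets was fixed in advance and only the size is described. Lef1 had log2 ratios of 1.03 and 0.83, Fzd10 of 0.90 and 0.58, and Wnt4 of 0.87 and 0.79. The sign was opposite for 10 members, among them Wnt2b, Wnt5a, Wnt9a, Fzd4 and Fzd6. The pair holds 1 embryo of each genotype and gives no error.

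**Figure D4:**
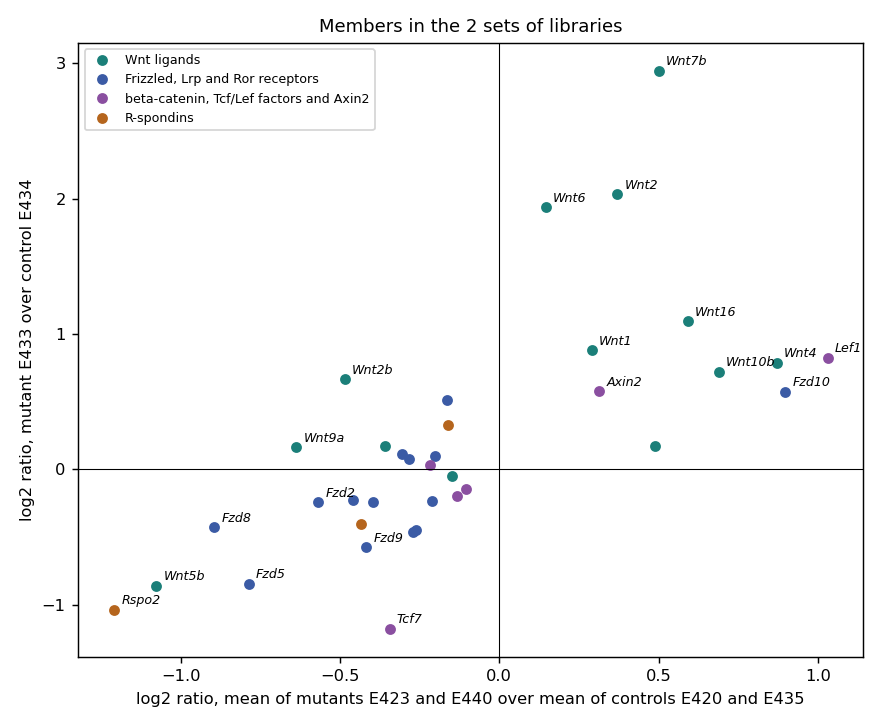
Log2 ratio of mutants E423 and E440 over controls E420 and E435 (x axis, ratio of means) against that of mutant E433 over control E434 (y axis, single libraries) for the members with both ratios except Rspo4, coloured by role. Rspo2, Wnt5b and Fzd5 lie at or below -0.79 on both axes and Lef1, Wnt4 and Fzd10 lie above 0 on both. For members whose groups do not overlap, such as Rspo2, Wnt5b and Fzd5, the shared sign was fixed in advance.

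The calls depended on these libraries. Without mutant E433, 10 of the 41 members passed the adjusted p limit in edgeR, where 13.4% of all genes did. Those lower were Fzd2, Fzd5, Fzd7, Fzd8, Rspo2, Wnt5a, Wnt5b and Wnt9a, and those higher were Fzd10, at a log2 fold change of 1.16, and Lef1, at 1.33. Fits without E433 alone kept E434 among the controls, so they cannot separate genotype from the tissue content of these libraries. DESeq2 passed 20 members without E433, and 21.6% of all genes. Leaving out both E434 and E433 left 2 nearly alike libraries in each group, and 33 of 41 members passed, where 37.6% of all genes did. With the early chondrocyte marker level as a covariate 6 passed, against 1.96% of all genes: Fzd5, Fzd8, Rspo2, Wnt5b and Wnt10a lower and Lef1 higher. An unadjusted p under 0.05 was found for 19 members without E433 (25% of all genes), 33 without E434 and E433 (39.8%) and 14 with the covariate (13.9%). Without any other single library 0 of 41 passed in edgeR. In these fits 0 of all genes passed without E420, E435, E423 or E440, and 20 of 25978 without E434. Fzd5 and Rspo2 passed in DESeq2 in each of the 6 fits that left out 1 library. Between 361 of 25896 genes (without E440) and 5576 of 25844 (without E433) passed there.

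A further 54 genes of the pathway, all tested, gave 0 calls in edgeR and 9 in DESeq2 (3.57% of all genes), with 14 at an unadjusted edgeR p under 0.05 (5 higher, 9 lower, against 10.6% of all genes). Groups did not overlap for 11 of them, 3 higher and 8 lower, against 15% of all genes. Among the 12 secreted antagonists, 9 had log2 fold changes below 0, and 3 passed in DESeq2, Dkk1 and Sost lower and Sostdc1 higher. Dkk1, which binds Lrp6, was at 7.66, 9.71 and 7.32 CPM in controls and at 5.17, 4.92 and 4.53 CPM in mutants, a log2 fold change of -0.76 ± 0.15 (SE; edgeR adjusted p = 0.260, DESeq2 adjusted p = 0.0043). Sost, the antagonist made by osteocytes, had a log2 fold change of -1.32 ± 0.32 (SE; edgeR adjusted p = 0.346, DESeq2 adjusted p = 0.0062). Sfrp1, a decoy that binds Wnt ligands, was at 118.8, 156.0 and 115.5 CPM in controls and at 61.7, 113.9 and 60.9 CPM in mutants, a log2 fold change of -0.72 ± 0.27 (SE; edgeR adjusted p = 0.440).

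The 9 genes known as targets of beta-catenin were divided, with 5 above and 4 below 0 and 4 called by DESeq2. Sp5 and Apcdd1 were higher in mutants, with groups apart and log2 fold changes of 2.28 ± 0.73 and 0.84 ± 0.30 (SE; edgeR adjusted p = 0.407 and 0.428, DESeq2 adjusted p = 0.0472 and 0.0770). Notum, a secreted enzyme that inactivates Wnt ligands, and Ccn4, a matrix protein of bone, were lower, with groups apart and log2 fold changes of -0.87 ± 0.28 and -0.66 ± 0.18 (SE; edgeR adjusted p = 0.411 and 0.366, DESeq2 adjusted p = 0.0961 and 0.0329). Sp5 and Apcdd1 were lowest in E434, at 0.0441 and 34.0 CPM, and Notum was highest there, at 9.16 CPM. Ccnd1 and Myc differed little, with log2 fold changes of 0.07 ± 0.10 and -0.08 ± 0.07 (SE; edgeR adjusted p = 0.825 and 0.723). Of the receptors for R-spondins, Lgr4 was at 88.2, 105.2 and 82.8 CPM in controls and 66.9, 82.4 and 65.7 CPM in mutants, without overlap, and its log2 fold change was -0.36 ± 0.13 (SE; edgeR adjusted p = 0.431).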

How the data were processed

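RNA-Seq of 6 rib cages was analysed, 3 control and 3 mutant, grouped by the labels, with 1 library from each embryo. The authors made stranded mRNA libraries, aligned paired reads to GRCm38 with HISAT2 2.1.0, and deposited raw counts per gene from featureCounts 1.6.0 on GENCODE exons. The command kept in the count table counted each read end on its own, used primary alignments only and ignored strand, so reads of overlapping genes cannot be told apart. The authors also deposited expected counts from STAR 2.7.6 and RSEM 1.2.31, rounded here to whole numbers. Their tables of DESeq2 1.26.0 comparisons (fold changes and adjusted p-values) were not used, nor were 12 columns of per-sample values in them.

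Genes with at least 10 summed counts entered edgeR 4.0.16 in R 4.3.3, with TMM scaling and its quasi-likelihood test, 2-sided, with Benjamini-Hochberg adjustment over all genes and a limit of 0.1. A log2 fold change is mutant over control. CPM per kilobase used the exon length of the count table. At these depths 3 counts equal 0.0618 to 0.0764 CPM. Alternatives were DESeq2 1.42.0, its size factors, other filters, a robust fit, RSEM, leaving out libraries, and the mean log2 CPM of early chondrocyte markers as a covariate. The fits were tested on simulated data. Simulated libraries of a group shared the same expected levels, so that test does not cover differences such as those of E434 and E433. All members, pathway genes and list genes could be named. Full values are given for members with p under 0.05 or with groups apart, for the highest of each role, and for those that turn on E434 or E433. Members and lists were chosen with earlier results of these data known, and no chance test over a list was made.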

Additional observations from a re-analysis of the deposited data

How the results depend on the processing

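The count of 0 members past the adjusted p limit in edgeR also held with DESeq2's size factors, without the low-count filter, with filterByExpr and with RSEM. It was 3 with DESeq2's Wald test (3.57% of all genes), 1 (Fzd5) with a robust fit (0.203%) and 6 with the early chondrocyte covariate (1.96%). Without E433 and E434 it was 33 (37.6% of all genes), and 30 in DESeq2 (7127 of all 25045 genes). Without 1 library it ran from 0 to 20, the highest without E433 in DESeq2 (21.6% of all genes). The 8 members with an unadjusted p under 0.05 became 14 with the covariate (13.9% of all genes) and 33 without E433 and E434 (39.8%). DESeq2 gave 31 without these 2 libraries, and 7867 of all 25045 genes. Without 1 library the members were 3 to 23, the highest without E433 in DESeq2 (6882 of all 25844 genes). The 8 with groups apart became 38 without E433 and E434, where 15709 of all 25045 genes were apart. Without 1 library they were 8 to 35, the highest without E433, where 12235 of all 25844 genes were apart. Pathway genes past the limit were 9 of 54 with DESeq2 and 5 with the covariate (3.57% and 1.96% of all genes). They were 41 without E433 and E434 (37.6%), or 38 in DESeq2 (7127 of all 25045 genes). Without 1 library they were 0 to 30, the highest without E433 in DESeq2 (21.6%). Ranges cover both tools, and the DESeq2 fits without libraries were added after seeing the data. The cause was not tested.

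The log2 fold change of Foxc1 passed the limit with DESeq2 (-2.33), without E433 and E434 (-2.74 in both tools) and with the covariate (-2.08), and ran from -2.99 to -2.08 without 1 library. That of Foxc2 passed with DESeq2 (-1.99), without E433 and E434 (-1.91 in both tools) and with the covariate (-1.67), and ran from -2.27 to -1.62 without 1 library. Of the 41 members, 30 kept their sign in every setting. The covariate reversed Wnt3 (-0.44), Wnt6 (-0.10), Wnt7a (-0.11), Fzd4 (0.027), Tcf7l1 (0.032) and Tcf7l2 (0.0027). Leaving out 1 library reversed the sign of Wnt2b (-0.31 to 0.077), Wnt3 (-0.34 to 0.71), Wnt6 (-0.17 to 0.71), Wnt7a (-0.096 to 0.93), Wnt10a (-0.56 to 0.28), Fzd4 (-0.26 to 0.018), Fzd6 (-0.31 to 0.20), Tcf7l1 (-0.26 to 0.043), Rspo1 (-0.24 to 0.12) and Rspo4 (-2.56 to 0.26).

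No paired analysis was possible because the embryo numbers are not shared between the groups and the labels give no litters; replicate numbers here are only in order of accession. With 3 embryos a group and libraries that differ in cell types, a p that misses the limit does not show that a member did not differ.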

Other observations

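None of the genes of Wnt secretion or of the intracellular relay passed the adjusted p limit in edgeR, and Ctnnbip1 alone passed in DESeq2. With values in the order E420, E434, E435 and E423, E433, E440, Wls, the carrier that brings Wnt ligands to the cell surface, was at 107.7, 91.4 and 108.2 CPM in controls and at 97.4, 91.2 and 93.7 CPM in mutants, a log2 fold change of -0.12 ± 0.09 (SE; edgeR adjusted p = 0.660). Of the 17 relay genes, which include the Dishevelled proteins and the complex that degrades beta-catenin, 10 had log2 fold changes below 0 and 7 above 0, all between -0.35 and 0.69. Gsk3b, the kinase that marks beta-catenin for degradation, had a log2 fold change of 0.01 ± 0.07 (SE; edgeR adjusted p = 0.985). Ctnnbip1, which blocks the binding of beta-catenin to Tcf factors, was at 55.3, 55.8 and 58.2 CPM in controls and at 109.5, 57.3 and 107.0 CPM in mutants. Mutant E433 lay among the controls, and the log2 fold change was 0.69 ± 0.24 (SE; edgeR adjusted p = 0.422, DESeq2 adjusted p = 0.0936).

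Among the 9 genes of planar polarity and other receptors, Celsr3 had groups apart, at 0.331, 0.221 and 0.453 CPM in controls and 1.27, 0.580 and 1.02 CPM in mutants, with a log2 fold change of 1.503 ± 0.410 (SE; edgeR adjusted p = 0.373, DESeq2 adjusted p = 0.0778). Celsr1, which orients hairs in skin, was at 42.2, 7.99 and 38.9 CPM in controls and 51.1, 20.2 and 44.8 CPM in mutants, so that E434 and E433 were lowest in their groups. The R-spondin receptor Lgr6 was at 9.40 to 9.70 CPM in all 3 controls but at 19.5, 6.91 and 20.8 CPM in mutants, where E433 was below every control. Its log2 fold change was 0.72 ± 0.39 (SE; edgeR adjusted p = 0.549).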
